A study of Mus musculus with 4 samples.

Results

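*Nucks1* encodes a chromatin-associated DNA-binding protein that casein kinase 2 and cyclin-dependent kinases phosphorylate, and that acts in homologous recombination in mammalian cells. It was studied here as an RNA bound by Argonaute (AGO), the protein that carries a miRNA to its target mRNA. All clusters with the gene name *Nucks1* were taken from the cluster tables of embryonic stem cell (ESC) cytoplasm and of C2C12 myotube cytoplasm. A cluster is a stretch of RNA that was crosslinked to AGO, called by the authors. *Nucks1* had 16 of the 2659 clusters in ESCs and 0 of the 889 clusters in myotubes. The gene was selected on its ESC cluster reads, the most of any nuclear-genome mRNA in that table, so its reads and everything measured in those clusters are given as a description, with no test.

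The libraries were made by PAR-CLIP, in which a modified nucleoside, taken up into RNA, is joined to the protein bound there by ultraviolet light and then appears in the reads as a T-to-C conversion. The ESCs carried a doxycycline-inducible HA-Flag-AGO2 transgene, were induced with 2.5 ug/ml doxycycline for 15 h, and their tagged AGO2 was captured with an anti-FLAG antibody. The myotubes were C2C12 cells, a mouse myoblast line, fused for 2 days, and their endogenous AGO was captured with a peptide that binds the AGO family. The AGO2 seen in ESCs was therefore that of a transgene, whereas the myotubes carried none, and cell type, AGO source and capture differed together. Both cell types were irradiated at 312 nm for 5 min, and their RNA was trimmed with RNase T1, an enzyme that cuts after G. Each group was 1 library, so no difference between them has a replicate check.

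The ESC clusters held 214955 reads and the myotube clusters 135023 reads. Of 10 ESC marker genes, 6 had clusters in ESCs (588 reads) and 0 in myotubes, with no ESC cluster on *Pou5f1*, *Klf4*, *Zfp42* or *Lin28a*. Of 10 myotube marker genes, 3 had clusters in ESCs (23 reads) and 7 had clusters in myotubes (347 reads). Of the 14 markers of fibroblasts, neurons, endoderm and mesoderm, the neuronal *Stmn2* had 6 reads in ESCs and the others had no cluster in either library. Among 21887 RefSeq protein-coding genes, 5.52% had an mRNA cluster in ESCs and 1.5% had one in myotubes. Few or no bound genes in lists this short are therefore near the share over all genes. RNA levels were not measured here, so AGO binding cannot be told apart from the amount of the RNA.

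A miRNA finds its target mainly through bases 2 to 8, the seed, which pair with a complementary site. Such sites lie mostly in the 3'UTR, and AGO bound there recruits the machinery that removes the poly(A) tail and represses translation. The clusters are numbered 1 to 16 from the 5' end of the mRNA. The following show the fragments with the most reads after cluster 14, given further below, and a closely packed pair, cluster 8 and cluster 9. They are given as mm10 sequence on the plus strand of chromosome 1, with every G, the base after which RNase T1 cuts, in capitals.
Cluster 1, coding, chr1:131931100-131931119: aaaaaactccttctcccaaa
Cluster 3, 3'UTR, chr1:131932435-131932457: atatttaaatctttcctccataG
Cluster 4, 3'UTR, chr1:131932471-131932494: acataatctcacaacctcctcctG
Cluster 8, 3'UTR, chr1:131933355-131933374: attttatctacctataattG
Cluster 9, 3'UTR, chr1:131933377-131933396: aaataatactatcttctacG

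A further 2 clusters shared the longest run of identical bases found between any 2 *Nucks1* clusters, 11 nt, which is in capitals. They lay far apart in the 3'UTR, and no other ESC 3'UTR cluster held this run on the mRNA strand.
Cluster 10, 3'UTR, chr1:131933719-131933744: cttactctccttcctCTTTTCCTCTG
Cluster 14, 3'UTR, chr1:131935433-131935457: aattctttccCTTTTCCTCTGgaag

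Cluster 5 held a match to a miRNA of the miR-290 gene cluster, which mouse ESCs are known to express strongly. The matched bases are in capitals in the cluster, and the seeds are in capitals in the mature miRNAs, whose sequences are from RefSeq (GRCm38.p6, the assembly of mm10).
Cluster 5, 3'UTR, chr1:131932764-131932783: tatatttttcTGCACTTAag
mmu-miR-291b-3p: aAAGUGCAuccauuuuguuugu
mmu-miR-350-5p: aAAGUGCAugcgcuuuggg
mmu-miR-294-3p: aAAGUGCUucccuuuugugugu

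AGO-bound clusters lay along several kilobases of the *Nucks1* 3'UTR. *Nucks1* (ENSMUSG00000026434.12) lies on chromosome 1 from 131910458 to 131936321, with 2 RefSeq transcripts. Of its 16 clusters, 15 lay in the 3'UTR and 1 in the coding sequence. Cluster 1, in the coding sequence, had 29 reads and was separated by 1025 genomic nt from cluster 2, the first in the 3'UTR. The 3'UTR clusters spanned 3873 nt, and the end of cluster 16 lay 304 nt before the end of the RefSeq gene. They covered 358 nt, or 9.24% of that span.

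The reads were divided among many clusters rather than gathered at a single site. Cluster 14 had 45 reads, cluster 8 had 38 reads, cluster 4 had 32 reads and cluster 1 had 29 reads. Together these 4 clusters held 144 of 290 reads (49.7%, exact Clopper-Pearson 95% interval 43.8 to 55.6). Cluster 3 had 25 reads, cluster 9 and cluster 16 had 21 reads each, cluster 5 had 20 reads and cluster 7 had 11 reads. The remaining 7 clusters had 5 to 9 reads. All intervals cover counting error only. No molecular identifiers are recorded in the data used, so copies made by PCR cannot be told apart from separate molecules in these counts.

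**Figure D1:**
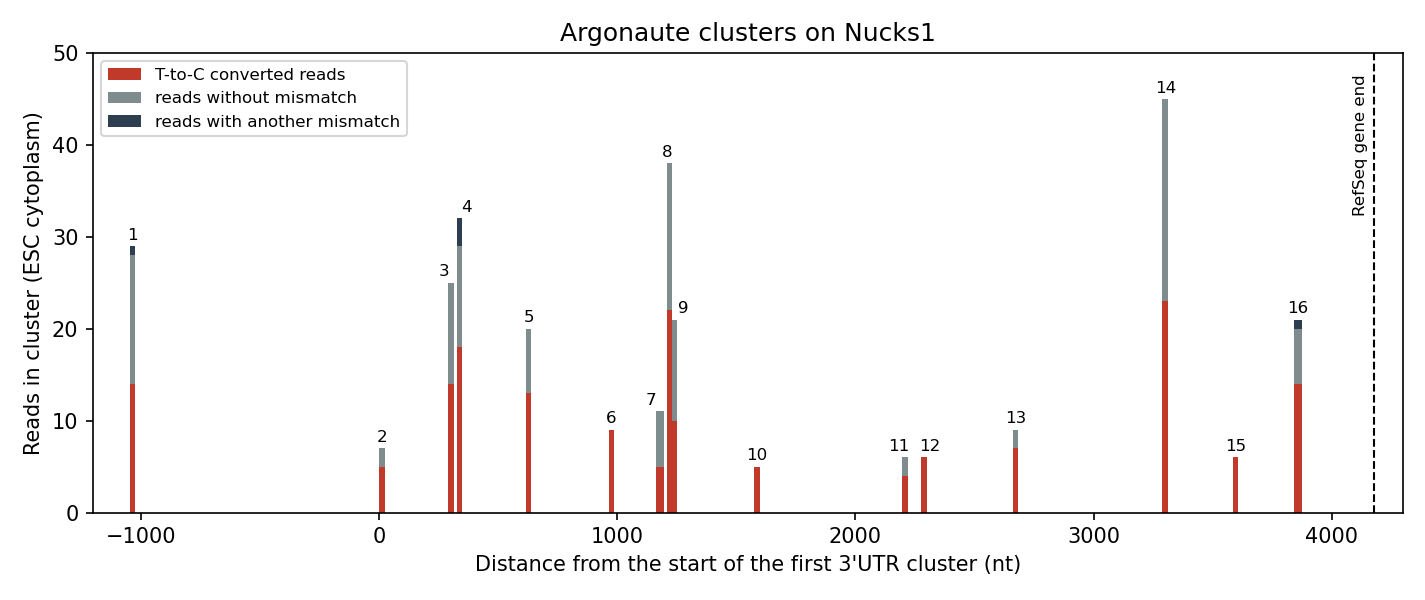
Reads in each Nucks1 cluster (y axis) against distance in nt from the start of the first 3'UTR cluster (x axis) in ESC cytoplasm, with the bars drawn at the clusters' true lengths and divided by mismatch type, and the clusters numbered 1 to 16. The highest bars are cluster 14 with 45 reads and cluster 8 with 38 reads, and clusters 10 to 13 stand at 5 to 9 reads.

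The middle of the bound stretch held few reads. When the span of the 3'UTR clusters was divided into 3 equal stretches of 1291 nt, the 5' stretch held 8 clusters with 163 reads (62.5% of 3'UTR reads, interval 56.3 to 68.3). The middle stretch held 3 clusters with 17 reads (6.51%, interval 3.84 to 10.2), and the 3' stretch held 4 clusters with 81 reads (31.0%, interval 25.5 to 37.0). In the 3' stretch cluster 14 alone had 45 reads.

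Neighbouring 3'UTR clusters were separated by a median of 267.5 nt over 14 gaps, with a range of 2 to 604 nt. Of these gaps, 3 were under 20 nt. Cluster 7, cluster 8 and cluster 9 formed the closest group, with gaps of 14 and 2 nt. These 3 clusters held 70 reads (24.1% of all *Nucks1* reads, interval 19.3 to 29.5) within 89 nt. Cluster 3 and cluster 4, with 57 reads between them in 60 nt, were separated by 13 nt. The widest gap, 604 nt, lay just before cluster 14, the cluster with the most reads.

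Many reads were repeated copies of the same sequence. The 290 reads comprised 101 distinct sequences. Cluster 4 had the most, 14 distinct sequences among 32 reads, and cluster 16 had 13 among 21 reads. Cluster 14 had 10 distinct sequences among 45 reads, cluster 8 had 7 among 38 reads and cluster 5 had 4 among 20 reads. Cluster 12 and cluster 15 rested on 2 distinct sequences each. The order of the clusters by distinct sequences therefore differed from their order by reads.

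*Nucks1* held 0.135% of all ESC cluster reads (interval 0.120 to 0.151), 1.30% of the reads on nuclear mRNAs (interval 1.16 to 1.46) and 1.67% of 3'UTR reads (interval 1.48 to 1.89). Just below it stood the metallothionein gene *Mt2* with 282 reads in 1 cluster and the glucose transporter gene *Slc2a3* with 213 reads in 8 clusters, among 1217 nuclear mRNA genes with a cluster. By distinct sequences *Nucks1* also came first, with 101 against 92 for *Tfcp2l1*, and by conversion events with 171 against 140 for *Tfcp2l1*. With 3'UTR reads only it came after *Mt2*, with 261 against 282 reads. Its leading cluster made up 15.5% of its reads, whereas that of *Mt2* made up 100%, that of *Slc2a3* 30.5% and that of the transcription factor gene *Tfcp2l1* 12.6%.

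**Figure D2:**
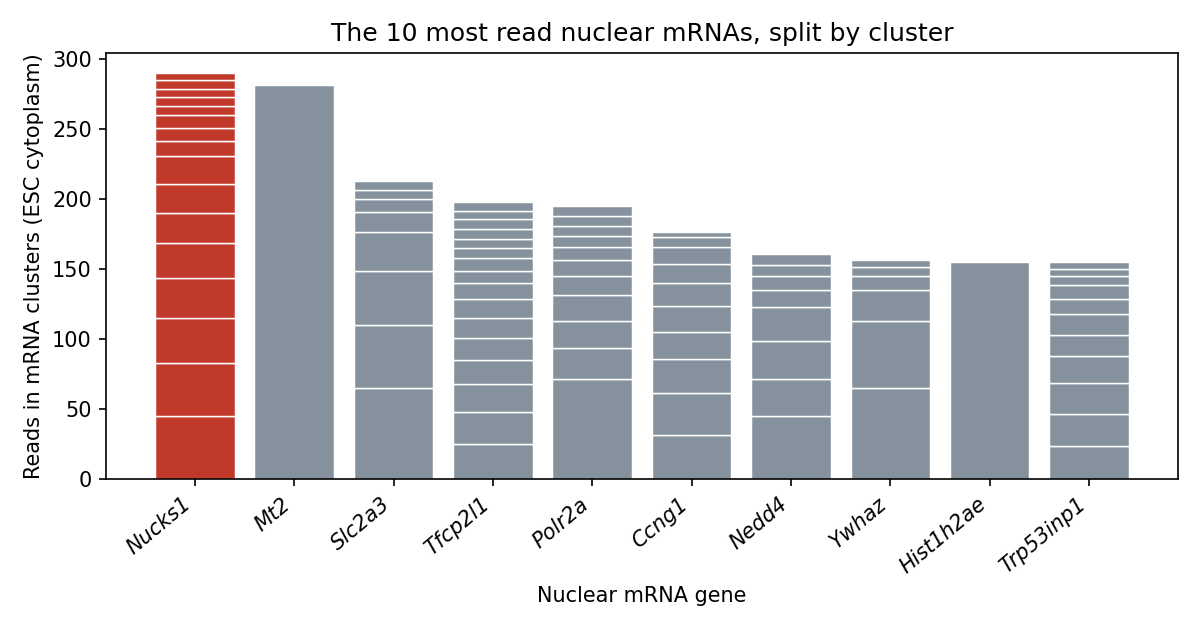
Reads in mRNA clusters of ESC cytoplasm (y axis) for the 10 nuclear mRNA genes with the most reads (x axis), each bar divided into its clusters by white lines. Nucks1 reached 290 reads through 16 clusters, whereas Mt2 had 282 reads in 1 cluster.

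T-to-C conversion, the mark of crosslinking, was present at every *Nucks1* cluster, as at every cluster in the table, where the smallest number of conversion positions was 2. Of the 290 reads, 175 were converted (60.3%, interval 54.5 to 66.0), 110 had no mismatch and 5 had another mismatch. In the 15 3'UTR clusters, 161 reads were converted and 4 had another mismatch, a ratio of 40.3, against 60.7 in the other 1310 ESC 3'UTR clusters. Of the 5 reads with another mismatch, 3 were in cluster 4. The clusters held 160 T residues, and conversions were recorded at 56 of them (35%). In 3'UTR clusters this share was 34.6% for *Nucks1* and 34.5% for other genes. The table does not say which T residues were converted.

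The number of conversion positions varied between clusters and tended to be higher in clusters with more reads. Spearman's rho between reads and conversion positions was 0.57 across the 16 clusters. Cluster 14 had conversions at 8 of its 11 T residues and cluster 8 at 6 of 10. Cluster 16 had 5 positions among 13 T residues and cluster 3 had 4 among 10. The other clusters had 2 or 3 positions each, down to cluster 7 with 3 of 15 T residues.

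The converted share was lower in clusters with more reads. All reads were converted in 4 clusters, namely cluster 6, cluster 10, cluster 12 and cluster 15, which had at most 9 reads. Cluster 14 had 51.1% converted reads (interval 35.8 to 66.3), cluster 8 had 57.9% (interval 40.8 to 73.7) and cluster 4 had 56.3% (interval 37.7 to 73.6). The lowest share was that of cluster 7, 45.5% of 11 reads (interval 16.7 to 76.6). Across the 16 clusters, which share 1 library and 1 mRNA, Spearman's rho between reads and converted share was -0.73, and across the other 1310 ESC 3'UTR clusters it was -0.56. Every cluster in the ESC table had at least 4 converted reads, so a cluster of 5 reads could not show a share under 80% and a cluster of 20 reads none under 20%.

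The 3'UTR clusters of *Nucks1*, a gene selected for its reads, had more reads than others and a lower pooled converted share. At like read numbers the share was only slightly lower, or higher. The *Nucks1* median was 11 reads (range 5 to 45), against 8 reads (range 4 to 282) in the other 1310 ESC 3'UTR clusters. Pooled over reads, 61.7% of *Nucks1* 3'UTR reads were converted (interval 55.5 to 67.6), against 68.1% elsewhere (interval 67.4 to 68.8). Among clusters with at least 20 reads, the median share was 56.3% in 7 *Nucks1* clusters (range 47.6 to 66.7) and 58.3% in 141 other clusters (range 11.1 to 97.6). The *Nucks1* range thus lay inside the range of the others. Among clusters under 10 reads the medians were 100% in 7 *Nucks1* clusters and 83.3% in 780 others. Clusters of 1 library are not replicates, and no test was made.

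**Figure D3:**
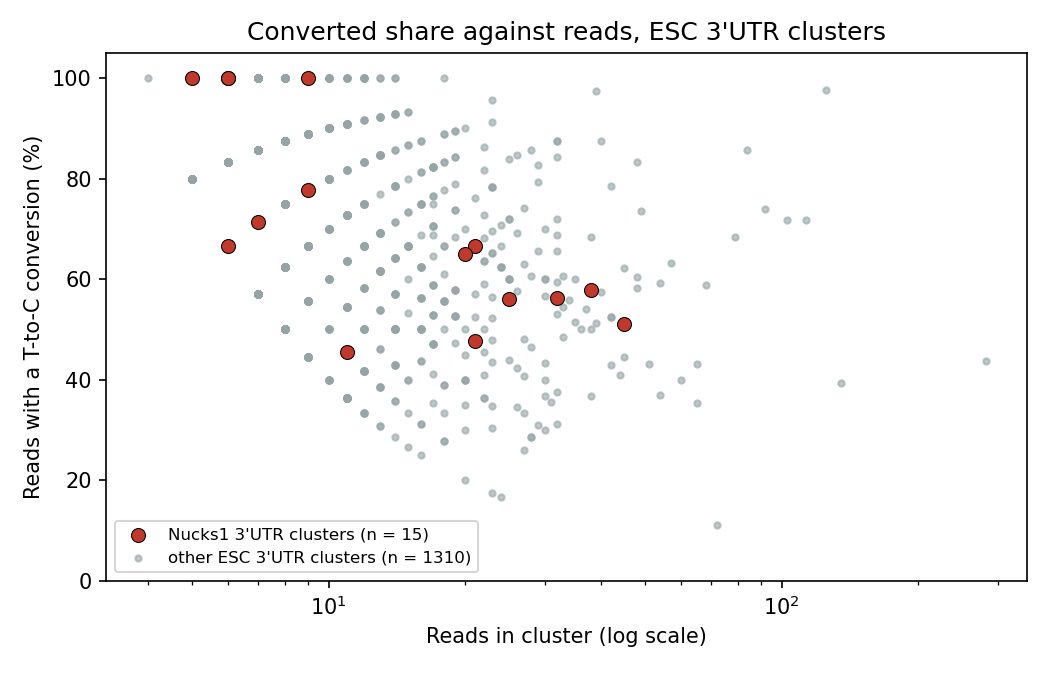
Share of reads with a T-to-C conversion (y axis, percent) against reads per cluster (x axis, log scale) for the 15 Nucks1 3'UTR clusters and the 1310 other ESC 3'UTR clusters, 1 point per cluster. Nucks1 clusters with at least 20 reads lie between 47.6% and 66.7%, within the spread of the other clusters.

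The bound *Nucks1* sequence was richer in T than that of other genes, and about as poor in G. T made up 43.6% of the bases in its 3'UTR clusters, against 38.4% in those of other genes. Cluster 2 reached 58.3% T. C made up 24.6% against 27.3%, A 25.4% against 27.8% and G 6.42% against 6.51%. Cluster length had a median of 23 nt (range 20 to 33) against 22 nt (range 20 to 56).

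Most *Nucks1* clusters ended in G. Of the 15 *Nucks1* 3'UTR clusters, 14 ended in G (93.3%, interval 68.1 to 99.8), against 443 of 642 other ESC 3'UTR clusters on the plus strand (69.0%, interval 65.3 to 72.6). On the minus strand 619 of 668 ESC 3'UTR clusters did (92.7%), a share close to that of *Nucks1*. The *Nucks1* exception was cluster 12, which held no G. In 9 of the 15 clusters no other G was present (60%, interval 32.3 to 83.7), against 72.1% of other ESC 3'UTR clusters (interval 69.6 to 74.6). By reads, a median of 97.8% of a *Nucks1* 3'UTR cluster's reads ended in G, with a range of 18.2 to 100%, against a median of 83.3% on the plus strand elsewhere. The lowest values were those of cluster 7, 18.2%, and cluster 16, 33.3%, the longest clusters with 33 and 31 nt. Cluster 1 in the coding sequence and cluster 12 in the 3'UTR held no G, yet 72.4% of the reads of cluster 1 and 66.7% of those of cluster 12 were recorded as ending in G. The recorded values therefore do not follow from the cluster sequence alone, and how they were computed is not given in the sources used here.

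Sites for well-studied miRNAs were then sought in the clusters. A 7mer-m8 site, complementary to miRNA bases 2 to 8, was looked for on the strand of the mRNA for 48 miRNA families of stem cells, muscle and other tissues. It was found in 0 of 16 *Nucks1* clusters, which allows a share of up to 18.8%. Across all 1325 ESC 3'UTR clusters, 9.21% held such a site, so a lower frequency in *Nucks1* was not detectable with 16 clusters. The stricter 8mer form, which adds an A after the 7mer-m8, was found in 0 of 16 clusters, against 3.32%. With 7mer-A1 sites added, 1 of 16 clusters held a site, against 14.2%, and with 6mer sites 1 of 16 did, against 23.9%. In both searches it was cluster 5. The families tested included the miR-17 and miR-290 families, let-7, miR-142-3p and miR-135. Clusters in the ESC table lay on 24 mature miRNAs of the reference table, led by miR-142a-3p with 43654 reads, miR-27b-3p with 891 reads and miR-34a-5p with 180 reads. Sites for these 24 miRNAs were also found in 0 of 16 *Nucks1* clusters, against 3.25% of ESC 3'UTR clusters.

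The match in cluster 5 to miR-291b-3p, which was not among the listed families, was singled out after its sequence was seen. Its bases TGCACTTA at chr1:131932774-131932781 were complementary to bases 2 to 8 of miR-291b-3p followed by A, an 8mer. The match began 1 nt before the cluster's mode position. The miRNA miR-350-5p has the same seed. None of miR-291b-3p, miR-350-5p and miR-294-3p was among the 24 mature miRNAs with clusters in the ESC table. Reads that formed no called cluster are not listed, so whether AGO carried these miRNAs is unknown. This 8mer was found in 9 of 1325 ESC 3'UTR clusters (0.679%), and the 7mer-m8 within it, TGCACTT, in 29 (2.19%). For the main miR-290 family seed, as in miR-294-3p, cluster 5 held the 7mer-A1 form, GCACTTA, which pairs with bases 2 to 7, is followed by A and overlaps the 8mer. That form was found in 22 ESC 3'UTR clusters (1.66%). Cluster 5 had 20 reads, of which 13 were converted (65%, interval 40.8 to 84.6), and all of its reads ended in G.

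With all 1679 mature mouse miRNAs in the reference table, 15 of 16 *Nucks1* clusters held a 7mer-m8 site (93.8%, interval 69.8 to 99.8), against 78% of ESC 3'UTR clusters. With the 8mer form, 5 of 16 clusters did (31.3%), against 36.4%. The 16 include the coding cluster 1, and within the 3'UTR the counts were 14 and 4 of 15 clusters. The cluster without a 7mer-m8 site was cluster 2. Among the matches were miR-186-5p in cluster 14, whose site ATTCTTT was present in 28 ESC 3'UTR clusters (2.11%), and miR-203-3p in cluster 16, whose site CATTTCA was present in 18 (1.36%). The search ended at the cluster boundaries, and a match is a description of the letters and not evidence that the miRNA was bound there.

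The 6 genes whose number of ESC 3'UTR clusters was closest to that of *Nucks1* were *Tfcp2l1* with 15 clusters, *Cbx5* with 12, *Ccng1*, *Trp53inp1* and *Tet1* with 10 each, and *Slc2a3* with 7, all in the same library. *Nucks1* had 0.729 reads per nt of cluster, *Slc2a3* had 0.836, the cyclin G1 gene *Ccng1* had 0.689, and the p53-induced *Trp53inp1* had 0.664. *Tfcp2l1* had 0.472, the DNA demethylase gene *Tet1* had 0.394 and the heterochromatin protein gene *Cbx5* had 0.371. *Nucks1* had 3.87 clusters per kb of span, against 2.09 in *Tfcp2l1*, which had the same number of 3'UTR clusters in 7172 nt. *Ccng1* was denser with 4.49, and *Slc2a3* had 3.38, *Trp53inp1* 2.83, *Cbx5* 1.59 and *Tet1* 1.36. The *Nucks1* median gap of 267.5 nt compared with 467 nt in *Tfcp2l1* and 146 nt in *Ccng1*.

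Among the 23 other genes with at least 5 ESC 3'UTR clusters, *Nucks1* was near the top in reads per nt and T content and near the bottom in the weight of its leading cluster. Only 2 of them had more reads per nt of cluster, but *Nucks1* was selected on its reads. For T, 3 had a higher share. In 20 of the 23 the leading cluster took a larger share of 3'UTR reads than in *Nucks1* (17.2%), with a median of 27.1% and a range of 13.7 to 43.8%. The genes named above with at least 10 clusters had shares like that of *Nucks1*, from 13.7% in *Tfcp2l1* to 18.1% in *Cbx5* and *Ccng1*. *Slc2a3*, with 7 clusters, had 38.7%. For clusters per kb *Nucks1* stood in the middle, with 11 of the 23 above it.

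**Figure D4:**
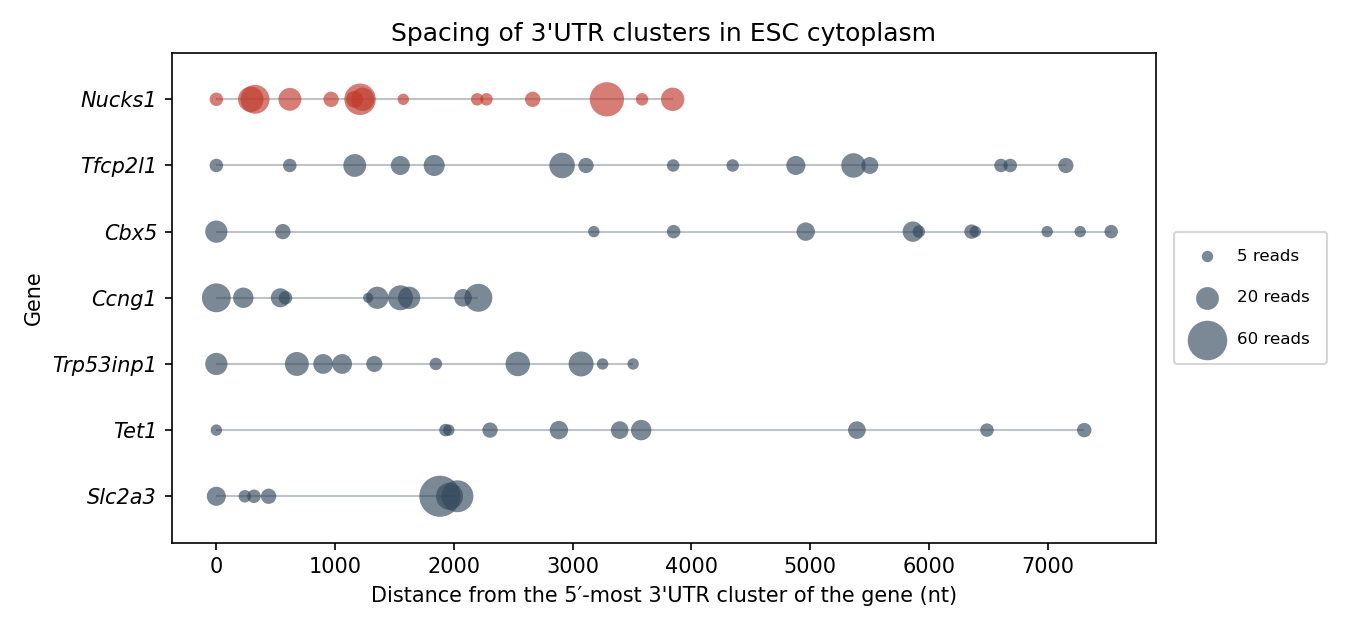
Position of each ESC 3'UTR cluster as distance in nt from the 5′-most cluster of its gene (x axis) for Nucks1 and the 6 genes with the nearest number of clusters (y axis), with the area of a circle in proportion to its reads. The 15 Nucks1 clusters lie within 3873 nt and the 15 Tfcp2l1 clusters within 7172 nt.

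In myotubes no cluster was annotated to *Nucks1*, and none of any annotation overlapped the gene on either strand. Of the 1217 nuclear mRNA genes with an ESC cluster, 87.7% had no mRNA cluster in myotubes, so *Nucks1* shared this state with most ESC-bound genes. Of the 23 other genes with at least 5 ESC 3'UTR clusters, 11 (47.8%) had none in myotubes. *Cbx5* (26 reads) and *Ccng1* (30 reads) had myotube clusters, whereas *Tfcp2l1*, *Trp53inp1*, *Tet1* and *Slc2a3* did not. The smallest myotube cluster had 5 reads, and reads that formed no cluster are not listed, so the number of myotube reads on *Nucks1* is unknown and no ratio between the libraries is given. For scale, the *Nucks1* share of ESC nuclear mRNA reads would correspond to 62.8 of the 4820 nuclear mRNA reads in myotubes, and its share of all ESC cluster reads to 182 of the 135023 myotube cluster reads. *Nucks1* was selected on its ESC reads, so its ESC share is high by selection and neither figure is an expected value. The figure of 182 also ignores that nuclear mRNAs held 22252 of 214955 cluster reads in ESCs but 4820 of 135023 in myotubes. AGO binding, the amount of *Nucks1* mRNA, AGO source and depth cannot be told apart here.

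Of the gene lists related to *Nucks1*, those of its kinases and regulators and of chromatin proteins had members with ESC clusters. For comparison, 5.52% of 21887 RefSeq protein-coding genes had an mRNA cluster in ESCs and 1.5% had one in myotubes, whatever their RNA level. Of 16 genes for homologous recombination, including the paralog *Rad51ap1*, none had an mRNA cluster in either library. Of 12 genes for kinases, p53 and cell cycle regulators linked to *Nucks1*, 4 had ESC clusters and 0 had myotube clusters. They were the casein kinase 2 subunit gene *Csnk2a1* with 37 reads in 4 clusters, *Trp53*, the gene of p53, with 23 reads, the cyclin gene *Ccna2* with 12 reads and the kinase inhibitor gene *Cdkn1b* with 10 reads. Of 22 genes for abundant non-histone chromatin proteins, 9 had ESC clusters with 329 reads and 1 had myotube clusters with 19 reads. The nucleolar chaperone gene *Npm1* had 138 ESC reads in 2 clusters, nucleolin (*Ncl*) 45 reads, the H2A.Z chaperone gene *Anp32e* 37 reads, the FACT subunit gene *Supt16* 36 reads and *Anp32b* 35 reads. *Anp32e* was the gene bound in both libraries, and the other 8 had no myotube cluster. The chromatin list was drawn up for abundant proteins, and how far RNA level sets these counts was not tested. Of 10 genes listed as chromosomal neighbours of *Nucks1*, none had an mRNA cluster in either library.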

How the data were processed

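The series lists 4 samples in 4 groups with 1 sample each. Cluster tables of 2 samples, ESC cytoplasm and myotube cytoplasm, were used, each assigned by its worksheet name, and the nuclear samples were not analysed here. Every sample title ends in "(2)", whose meaning the labels do not give. The deposited columns for reads, distinct sequences and conversions hold whole-number counts, not normalized. The columns for the converted and G-ending parts of the reads each hold a fraction between 0 and 1, per the file headers, printed here as percent. The genome build was mm10 and reads were demultiplexed with bcl2fastq 2.17.1, per the submitters' processing notes. Alignment software, cluster calling and pooling were not given in the sources used here, so what the caller dropped, and so the depth below its limit, is unknown. Of the files' lines, 4 in the ESC table and 1 in the myotube table were blank.

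Clusters named *Nucks1* were selected by gene name. Nuclear mRNA clusters are those annotated as 3'UTR, coding, 5'UTR, start or stop codon outside the mitochondrial chromosome. Shares have exact Clopper-Pearson 95% intervals (SciPy 1.17.1), and a count of 0 was taken to allow 3 counts. With 1 library per group no test was made. The genes most like *Nucks1* are those with the nearest number of ESC 3'UTR clusters, ties going to the nearest reads. Of the 1217 ESC and 331 myotube mRNA genes, 1209 and 328 matched a RefSeq protein-coding gene (GRCm38.p6) by symbol or older symbol. From each gene list the 5 members with the most reads are named. Seeds came from the RefSeq miRNA table, which matched 48 of 51 listed families, with miR-23a-3p and miR-135a-5p used for their families. No entry was found for miR-122-5p, miR-124-3p and miR-140-5p. Site search, intervals and gaps were tested on simulated data. Alternatives changed the cluster class, the read minimum, the denominator, the site type and the miRNA list. The members and lists were chosen with earlier results of these data known.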

Additional observations from a re-analysis of the deposited data

How the results depend on the processing

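With at least 10 reads per cluster, 9 of the 16 *Nucks1* clusters remained, and these held 242 of the 290 reads. A wider merge, which joined clusters across the gaps under 20 nt, left 12 *Nucks1* 3'UTR clusters. The 15 of *Tfcp2l1* had no gap under 57 nt and stayed apart, so the equal cluster counts of these 2 genes did not hold. The *Nucks1* share of 0.135% of ESC cluster reads depended on the denominator and unit. It was 1.30% of nuclear mRNA reads, 1.67% when 3'UTR reads were set over 3'UTR reads, 0.422% by distinct sequences, and 0.114% without the cluster with the most reads. The count of 0 clusters with a seed match became 1 with 7mer-A1 sites added, 1 with 6mer sites and 15 with all mature miRNAs, since each setting admits more sites. The rank of *Nucks1* by reads was 2 with 3'UTR reads only, because its coding cluster was left out. The ranks by distinct sequences, conversion events and 3'UTR reads, and the search restricted to miRNAs with ESC clusters, were chosen after seeing the data. Several results kept their value within the counting interval or within 1.5 times. These were the cluster count with 3'UTR clusters only or with clusters less than 10 nt apart merged, the converted share, the median gap and the absence in myotubes. The counts of 8mer sites and of sites of miRNAs with ESC clusters did so too. No paired analysis was possible because each group has 1 library. In clusters of 5 to 9 reads the converted share is bounded from below, since no called ESC cluster had fewer than 4 converted reads.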

Other observations

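The deposited share of reads ending in G differed by strand in both tables. In ESC 3'UTR clusters its median was 84% on the plus strand (657 clusters) and 0% on the minus strand (668 clusters), and in myotubes it was 100% (191 clusters) and 0% (172 clusters). The cluster sequences themselves ended in G in 69.6% of plus-strand and 92.7% of minus-strand ESC clusters. *Nucks1* is on the plus strand, and its deposited share was therefore compared with plus-strand clusters only. The cause of the strand difference was not tested.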
